A study of Mus musculus with 24 samples.

Results

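The synaptic vesicle and exocytosis genes are 38 genes whose products build, dock, prime or fuse the vesicles that hold neurotransmitter. They were taken by gene symbol from the platform's probe annotation, which gave 106 probe sets of the 45037 tested and 38 of the 18193 genes with a symbol of their own. All 38 were measured and tested, since no filter on low values was applied. A gene's value was the mean over its probe sets, and 30 of the 38 had more than 1.

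The arrays came from wild-type male C57BL/6 mice, whose age the characteristics in the labels give as 6 to 8 weeks. By the methods this was the age at purchase, before the weeks of stress, so the mice were older when tissue was taken. CMS mice met unpredictable mild stressors on 6 days a week for 4 weeks, and control mice did not. Total RNA from 4 brain areas, abbreviated Amy for amygdala, Hippo for hippocampus, PFC for prefrontal cortex and CC for the tissue labelled cerebral cortex, was hybridised to 24 Affymetrix mouse expression arrays, 3 for each treatment in each area, and each area was compared on its own. The labels name each array a biological replicate from a mouse, whereas the methods speak of pooled RNA, and the free-text descriptions give an upper age that climbs from sample to sample, so p-values measure the spread between these arrays. Each area was pieces of bulk tissue, in which fewer cells of a type and less RNA per cell cannot be told apart.

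Transmitter release begins when a loaded vesicle is tethered at the active zone, a protein scaffold on the presynaptic membrane. A vesicle SNARE protein then zips together with SNARE proteins of the target membrane, complexins hold this bundle ready, and a synaptotagmin that binds calcium triggers fusion. Afterwards an ATPase with its adaptor takes the spent SNARE bundle apart for another round. In each of these areas such steps serve fast glutamate and GABA signalling.

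The starts of 4 genes are shown for their CMS effects, Cplx3 with the largest change of the set, the SNARE genes Stx1a and Vamp1, and Napb, the gene that passed in every area, together with Syn1, the one member whose upstream window held a complete cyclic AMP response element. Sequences are the 250 bases before the annotated start, 5′ to 3′ on the gene's strand, from RefSeq on GRCm38.p6. Stx1a lies at chr5:135023232-135023481 on the plus strand, Vamp1 at chr6:125215331-125215580 on the plus strand, Napb at chr2:148732421-148732670 on the minus strand, Cplx3 at chr9:57606282-57606531 on the minus strand and Syn1 at chrX:20920919-20921168 on the minus strand. Capitals mark the motifs searched on both strands, namely the GC box GGGCGG, the response element TGACGTCA, its core TGACG that also lies within it, the TATA box TATAAA, and CAGCACC and GGACAGC, parts of the element bound by the neuronal repressor REST.
Stx1a: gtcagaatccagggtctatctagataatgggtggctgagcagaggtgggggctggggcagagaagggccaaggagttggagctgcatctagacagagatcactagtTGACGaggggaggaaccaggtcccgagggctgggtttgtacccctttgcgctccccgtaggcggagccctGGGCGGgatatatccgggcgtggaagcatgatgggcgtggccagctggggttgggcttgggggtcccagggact
Vamp1: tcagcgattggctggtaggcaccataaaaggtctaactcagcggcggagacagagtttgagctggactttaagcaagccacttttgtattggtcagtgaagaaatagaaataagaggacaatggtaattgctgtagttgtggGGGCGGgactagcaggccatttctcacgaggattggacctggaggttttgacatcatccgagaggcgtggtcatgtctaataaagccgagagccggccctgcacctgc
Napb: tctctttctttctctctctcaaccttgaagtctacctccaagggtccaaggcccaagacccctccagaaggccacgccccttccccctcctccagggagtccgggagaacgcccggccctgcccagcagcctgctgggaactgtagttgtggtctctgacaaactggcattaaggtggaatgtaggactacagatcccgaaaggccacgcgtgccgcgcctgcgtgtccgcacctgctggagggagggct
Cplx3: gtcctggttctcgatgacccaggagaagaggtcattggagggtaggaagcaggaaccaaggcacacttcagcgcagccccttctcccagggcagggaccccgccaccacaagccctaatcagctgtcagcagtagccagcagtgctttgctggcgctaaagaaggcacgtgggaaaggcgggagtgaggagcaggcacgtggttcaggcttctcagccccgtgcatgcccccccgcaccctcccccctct
Syn1: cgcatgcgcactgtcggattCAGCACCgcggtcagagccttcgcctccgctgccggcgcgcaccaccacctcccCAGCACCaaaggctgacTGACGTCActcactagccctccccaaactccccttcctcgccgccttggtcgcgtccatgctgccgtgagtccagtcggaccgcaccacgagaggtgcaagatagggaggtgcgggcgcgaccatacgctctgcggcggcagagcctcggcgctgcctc

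Promoter entries were found for 29 of the 38 genes, with 42 starts. GGGCGG was present in 61.9% of these windows and in 32.7% of all 32851 promoter windows of that length, and the Stx1a and Vamp1 windows each held it once. TGACGTCA was present in 1.55% of all windows and, among the members, in that of Syn1. TGACG was in 16.7% of the members' windows and 17.8% of all windows, with a copy in Stx1a. CAGCACC was in 7.14% and 5.73%, with 2 copies in Syn1, GGACAGC in 11.9% and 5.28%, and TATAAA in 7.14% and 12.4%. The Napb and Cplx3 windows held none of these letters, and a match is a description of the sequence only.

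With CMS, exocytosis genes moved in both directions in every area, and none but Cplx3 in Hippo changed more than 2-fold. A gene passed the test where limma's moderated test gave a Benjamini-Hochberg adjusted p under 0.05 over all 18193 genes. In Amy 7 of the 38 rose and 7 fell, or 18.4% each way, against 10.5% of all genes that rose and 8.84% that fell. In Hippo 6 rose, or 15.8%, and 9 fell, or 23.7%, where 4.66% of all genes rose and 24.9% fell, so the falling share was near the background. In PFC 2 rose and 6 fell, or 5.26% and 15.8%, against 4.45% and 3.92% of all genes, and the rising share was near the background. In CC 7 rose and 6 fell, or 18.4% and 15.8%, against 5.95% and 3.99%.

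The baseline of the arrays differed between treatments in every area. The commonest value of an array, where probe sets without signal pile up, was −0.007 to 0.001 on CMS and 0.029 to 0.049 on control Hippo arrays. It was 0.013 to 0.021 against 0.001 to 0.01 in Amy, −0.001 to 0 against −0.029 to −0.009 in PFC, and −0.025 to −0.02 against −0.008 to 0.026 in CC, with no overlap in any area. Within 0.02 of it lay 27.4% to 30.8% of the probe sets on CMS and 44.9% to 45.8% on control Amy arrays. Of all probe sets tested, 20.1% lay within 0.1 of this value on every array, and of the members' 106 probe sets 3 did, so probe sets without signal took a larger share of the background than of the members. The member numbers that follow are counts out of 38, of which 7 are 18.4%, 5 are 13.2% and 2 are 5.26%, set beside percentages of all genes. With each array centred on its median, 5 members rose and 5 fell in Hippo, beside 3.88% and 6.23% of all genes. Both member shares were then above those of all genes. The split was then 7 and 10 in Amy, beside 6.96% and 9.74%, 2 and 5 in PFC, beside 2.84% and 3.77%, and 6 and 3 in CC, beside 5.32% and 2.08%. With quantile normalization it was 9 and 7 in Amy, beside 7.59% and 9.09%, 8 and 6 in Hippo, beside 4.72% and 7.09%, 4 and 4 in PFC, beside 3.42% each way, and 7 and 6 in CC, beside 6.42% and 4.78%.

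**Figure D1:**
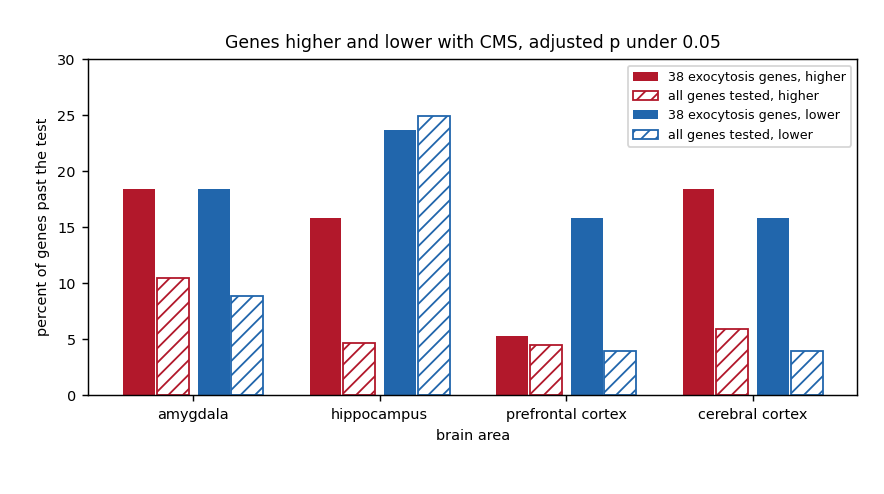
Percent of the 38 exocytosis genes (filled bars) and of all 18193 genes (hatched bars) that rose (red) or fell (blue) with CMS at an adjusted p under 0.05, by brain area. The filled bar stands at or above the hatched bar in 7 of the 8 pairs and slightly below it for genes that fell in Hippo.

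The past-2-fold counts were 0 of 38 in Amy, 1 in Hippo, 0 in PFC and 0 in CC, where 0.583%, 0.253%, 0.247% and 0.357% of all genes passed. On the log2 scale the members' median difference, CMS minus control, was 0.01 in Amy, −0.04 in Hippo, −0.07 in PFC and −0.0043 in CC, and the medians of all genes were 0.02, −0.05, 0.02 and −0.03. Taken without sign, the members' median difference was 0.153, 0.129, 0.12 and 0.116 in the same order, and that of all genes 0.0827, 0.0742, 0.057 and 0.0747. The 3 CMS and 3 control arrays did not overlap for 24, 20, 24 and 22 of the 38 members, beside 55.2%, 56.4%, 48.1% and 52.1% of all genes.

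**Figure D2:**
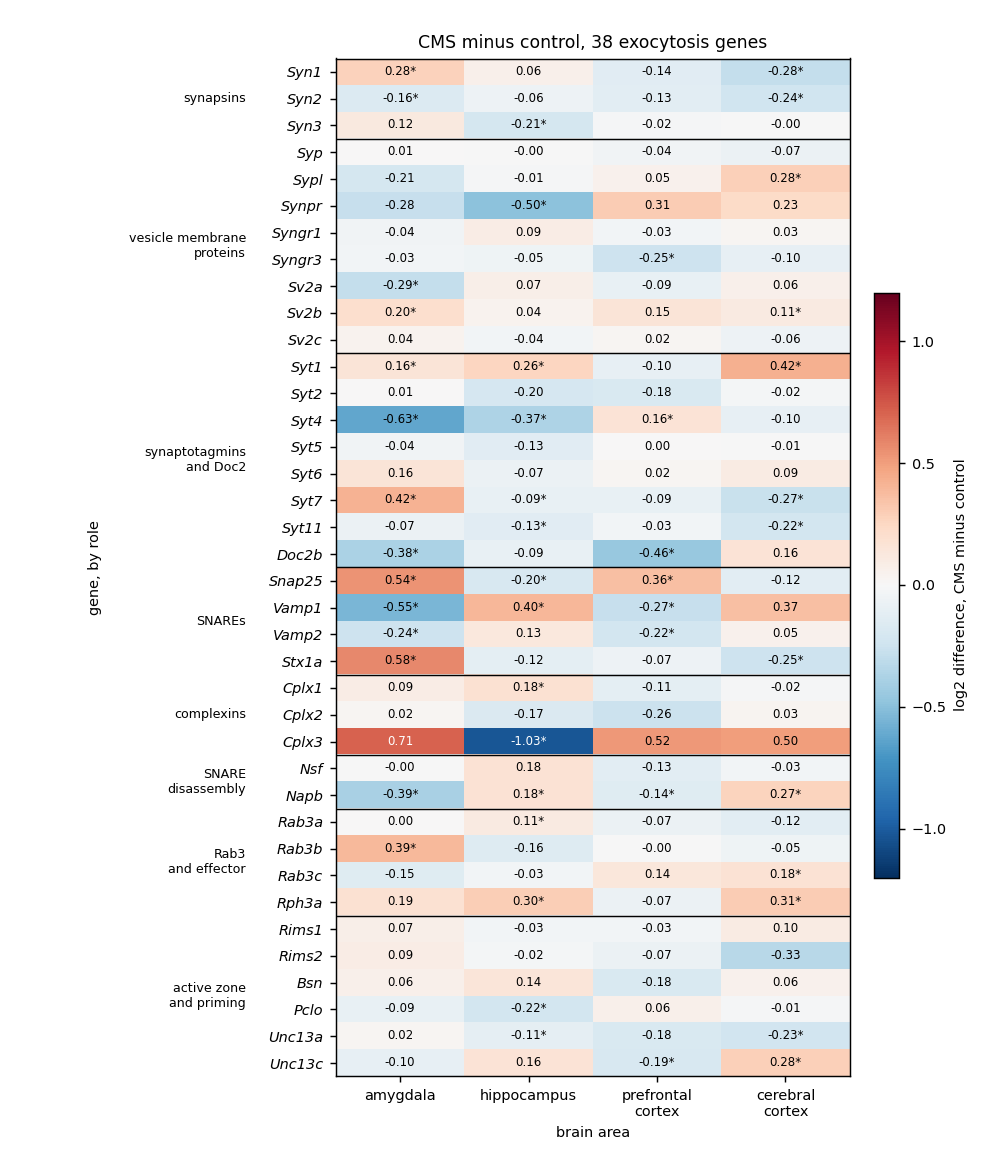
Log2 difference, CMS minus control, of each exocytosis gene (rows, grouped by role) in each brain area (columns), with an asterisk where the adjusted p is under 0.05. Red is higher and blue lower with CMS, and the darkest cell is Cplx3 in Hippo at −1.03.

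Several technical measures and other cell types moved with CMS in the same tissue, and their part in the members' changes was not tested. In Amy 8 of 9 oligodendrocyte markers fell, with a mean log2 level of −0.46 to −0.43 in CMS arrays and 0.02 to 0.07 in controls, and 8 of 11 striatal markers rose, from 0.98 to 1.02 in controls to 1.26 to 1.33. In Hippo 10 of 12 thalamus and habenula markers rose, from −0.52 to −0.44 up to 0.57 to 0.63. In CC 9 of 11 striatal markers rose, from −1.99 to −1.81 up to −0.74 to −0.66, 6 of 9 oligodendrocyte markers rose, from −0.06 to −0.04 up to 0.15 to 0.18, and all 10 choroid plexus markers fell, from 1.68 to 1.69 down to −1.30 to −1.23. In PFC 6 of 9 oligodendrocyte markers fell, from −0.20 to −0.15 down to −0.44 to −0.41. There 5 of 11 striatal markers fell, from 0.79 to 0.82 down to 0.63 to 0.66, while Tac1 rose by 0.17 past the test. In PFC 4 of 10 choroid plexus markers fell, from 0.13 to 0.33 down to −0.87 to −0.80. The astrocyte markers there were mixed, with Aqp4, S100b and Sox9 lower and Aldoc higher past the test. The choroid plexus marker Ttr, which encodes transthyretin, differed by −3.70 in Amy, −7.15 in PFC and −6.91 in CC, each past the test. In Amy no other choroid plexus marker passed downward, and Clic6 rose by 0.36 and Kcnj13 by 1.05, both past the test. Astrocyte markers fell in Amy, 4 of 10, from 0.235 to 0.254 down to 0.0352 to 0.0661, and in Hippo, 4 of 10, from 0.05 to 0.13 down to −0.03 to 0.02, and 4 of 10 rose in CC, from −0.20 to −0.12 up to 0.08 to 0.10. Of 10 microglial markers 5 rose in CC, from −0.30 to −0.10 up to 0.15 to 0.19, and of 8 endothelial markers 4 rose in Amy, from −0.30 to −0.15 up to 0.10 to 0.21. Of 13 general neuronal markers 1 rose and 4 fell in Amy, 5 rose and 1 fell in Hippo, 1 rose and 2 fell in PFC, and 2 rose and 3 fell in CC. Values are centred on each probe set's median over the 24 arrays, so no marker has a zero level here. In controls the hippocampal and neocortical lists stood highest in the areas of their names, while the striatal list was high in Amy and PFC. With CMS in Amy, 1 of 12 hippocampal markers rose and 4 fell, from 0.24 to 0.317 down to −0.279 to −0.163. There 1 of 9 amygdala markers rose and 4 fell, from 0.614 to 0.666 down to 0.332 to 0.377. In Hippo itself the hippocampal markers C1ql2, Lct, Wfs1, Spink8 and Neurod1 fell and Zbtb20 rose, each past the test. Of 12 GABAergic interneuron markers 2 rose and 5 fell in Amy, and 4 rose and 5 fell in Hippo. In PFC Pvalb, Vip, Npy and Cck rose and Lhx6 fell past the test. In CC Gad1, Gad2, Pvalb and Npy rose and Reln fell past it. In Hippo 1 of 9 neocortical markers rose and 3 fell. Mean levels there overlapped, at −1.41 to −1.28 after CMS and −1.36 to −1.26 in controls.

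Among the SNARE genes, which form the fusion bundle, CMS changed all 4 members in at least 2 areas. Stx1a encodes syntaxin-1A, a SNARE of the plasma membrane. In Amy its log2 values were −0.48, −0.64 and −0.68 in the CMS arrays and −1.16, −1.23 and −1.14 in the controls. Every CMS array lay above every control array, and the rise was 0.58 (SE 0.061, adjusted p = 0.00621), or 1.49-fold. In CC it went the other way, with 0.58, 0.59 and 0.67 after CMS against 0.85, 0.88 and 0.85, a fall of 0.25 (SE 0.032, adjusted p = 0.0117). The differences in Hippo, −0.12, and PFC, −0.07, did not pass. The Amy effect differed from that in each of the other areas, by 0.64 to 0.82 on the log2 scale (adjusted p from 5.59e-07 to 2.01e-05).

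Snap25 encodes the other plasma membrane SNARE. Its values in Amy were 0.42, 0.70 and 0.62 in CMS arrays and 0.05, 0.06 and 0.02 in controls, a rise of 0.54 (SE 0.077, adjusted p = 0.0131), and the call was lost when any 1 of the 3 control arrays was left out. In PFC they were 0.10, 0.01 and 0.08 against −0.30, −0.24 and −0.36, a rise of 0.36 (SE 0.042, adjusted p = 0.0126). In Hippo all CMS arrays lay below the controls, with −0.16, −0.14 and −0.19 against 0.03, 0.07 and 0.00046 (difference −0.20, adjusted p = 0.0132). These shifts sat in 1 of the gene's 2 probe sets. That probe set rose by 1.01 in Amy and 0.77 in PFC and fell by 0.38 in Hippo, whereas the other moved by 0.06, −0.05 and −0.01.

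Vamp1 encodes synaptobrevin-1, a SNARE on the vesicle. Its Amy values were −0.48, −0.51 and −0.58 with CMS and 0.11, 0.0017 and −0.04 in controls, a fall of 0.55 (SE 0.048, adjusted p = 0.00411) that both probe sets showed, by 0.55 each. Its hippocampal values were 0.17, 0.45 and 0.21 against −0.11, −0.17 and −0.08, a rise of 0.40 (SE 0.083, adjusted p = 0.0306). The 2 areas thus moved in opposite directions, by a difference of 0.95 (adjusted p = 3.24e-06). The gene fell by 0.27 in PFC (adjusted p = 0.0279), and its CC difference of 0.37 had an adjusted p of 0.0502 and came from 1 probe set, 0.86 against −0.13. The hippocampal call was lost without CMS array 1 or 3 or control array 1 or 2.

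Vamp2, the synaptobrevin of most forebrain terminals, fell by 0.24 in Amy (adjusted p = 0.0117) and by 0.22 in PFC (adjusted p = 0.0176). Its differences of 0.13 in Hippo and 0.05 in CC did not pass.

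**Figure D3:**
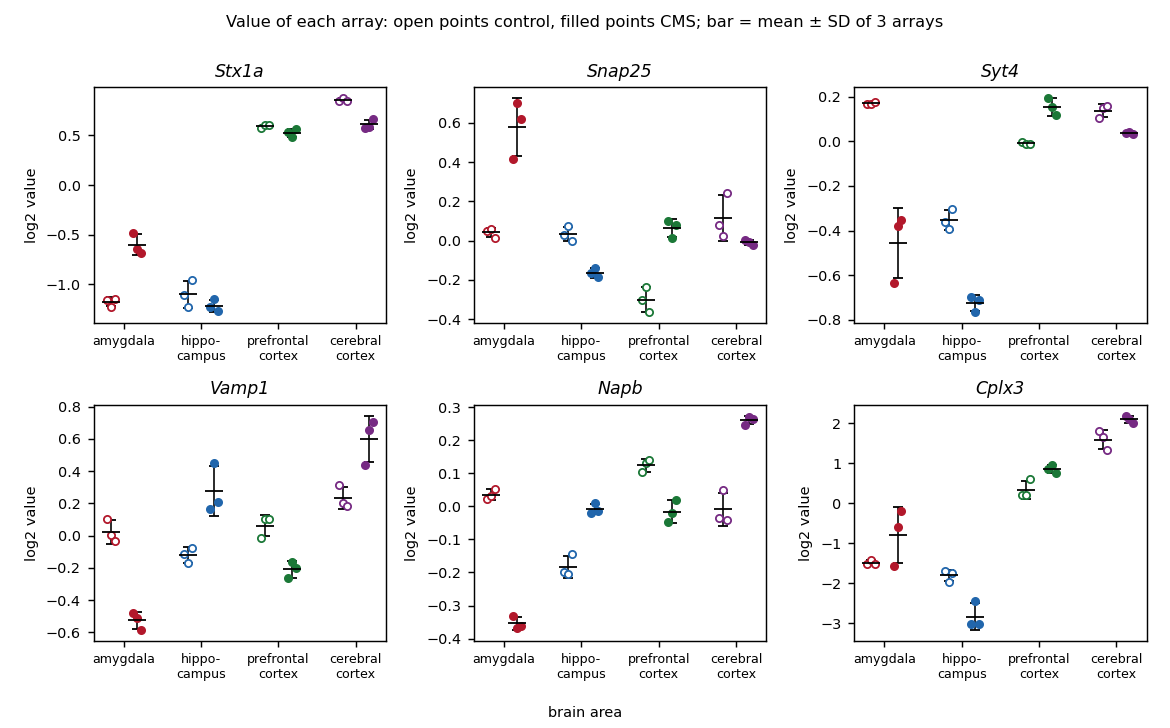
Log2 value of every array for 6 genes with large CMS effects, by brain area, with open points for control and filled points for CMS and bars for the mean ± SD of 3 arrays. CMS and control arrays are apart in Amy for each gene but Cplx3, whose 3 Amy CMS arrays spread from −1.56 to −0.20.

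The SNARE disassembly genes are Nsf, the ATPase, and Napb, which encodes its brain adaptor beta-SNAP. Napb was the 1 member that passed in all 4 areas. Its Amy values were −0.33, −0.37 and −0.36 with CMS and 0.02, 0.03 and 0.05 in controls, a fall of 0.39 (SE 0.017, adjusted p = 0.0011). It fell by 0.14 in PFC (adjusted p = 0.0311), and it rose by 0.18 in Hippo (adjusted p = 0.0122) and by 0.27 in CC, from −0.04, 0.05 and −0.04 to 0.25, 0.27 and 0.26 (adjusted p = 0.00963). Arrays of the 2 treatments did not overlap in any area. Its 6 probe sets differed in size, from −1.05 to 0.03 in Amy and from −0.22 to 0.71 in CC. Nsf passed in no area, with differences from −0.13 to 0.18.

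Among the complexins, Cplx3 gave the largest change of the set and Cplx1 a small one. Cplx3, the complexin best known from ribbon synapses and deep cortical neurons, has 1 probe set. Its hippocampal values were −3.03, −2.45 and −3.04 with CMS and −1.71, −1.97 and −1.74 in controls, a fall of 1.03 (SE 0.186, adjusted p = 0.0237), so that controls were 2.04-fold higher. The arrays did not overlap, yet the call was lost without CMS array 1 or 3 or control array 1 or 2, and its size ranged from −1.22 to −0.75 over the settings tried. In the other areas the CMS mean was the higher, by 0.71, 0.52 and 0.50 in Amy, PFC and CC, and none of these passed (adjusted p = 0.219, 0.0672 and 0.0702). The hippocampal effect differed from each of them, by 1.53 to 1.74 (adjusted p from 0.00101 to 0.00471). Cplx1 rose by 0.18 in Hippo (adjusted p = 0.0427), and Cplx2 passed in no area.

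Of the 8 genes of the synaptotagmin and Doc2 group, which holds the calcium sensors of release and relatives of weak or no calcium binding, 2 rose and 2 fell in Amy, 1 rose and 3 fell in Hippo, 1 rose and 1 fell in PFC, and 1 rose and 2 fell in CC. Syt1, the fast calcium sensor of glutamate and GABA release, was the 1 member that moved in a single direction in 3 areas, as 1.34% of all genes did in at least 3. It rose by 0.16 in Amy (adjusted p = 0.0265), 0.26 in Hippo (adjusted p = 0.0166) and 0.42 in CC (adjusted p = 0.00234), where the arrays read 0.44, 0.42 and 0.44 against 0.03, 0.03 and −0.03. Its prefrontal difference of −0.10 did not pass. The probe sets were split in Amy, from −0.15 to 0.57, each of these passing the test.

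Syt4, a synaptotagmin with weak calcium binding that is induced by neuronal activity, fell most of all members in Amy. Its values there were −0.64, −0.38 and −0.35 with CMS and 0.17, 0.16 and 0.18 in controls, a fall of 0.63 (SE 0.081, adjusted p = 0.0101), with controls 1.54-fold higher. It fell by 0.37 in Hippo (SE 0.032, adjusted p = 0.00679) and rose by 0.16 in PFC (adjusted p = 0.0211), and both probe sets had the same sign in each of these areas. The Amy and prefrontal effects differed by 0.79 (adjusted p = 3.99e-07).

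Syt7, a sensor of slow release and vesicle refilling, rose by 0.42 in Amy (SE 0.051, adjusted p = 0.00889), from −0.53, −0.59 and −0.56 to −0.04, −0.17 and −0.21. It fell by 0.09 in Hippo and 0.27 in CC (adjusted p = 0.0377 and 0.0228). Its 4 probe sets ran from 0.10 to 0.88 in Amy, where 2 of them passed. Syt11, which does not act as a calcium trigger, fell by 0.13 in Hippo and 0.22 in CC (adjusted p = 0.0494 and 0.00976). Doc2b, a high-affinity sensor linked to spontaneous release, fell by 0.38 in Amy (adjusted p = 0.00606) and by 0.46 in PFC (adjusted p = 0.0156), where the arrays read −0.93, −0.82 and −0.91 against −0.52, −0.44 and −0.33. In Amy 1 of the 2 Doc2b probe sets passed, at −0.66, and the other stood at −0.09. The prefrontal Doc2b call was lost without CMS array 1 or 3 or control array 2. Syt2, Syt5 and Syt6 passed in no area.

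Of the 3 synapsins, which tie vesicles into the reserve pool, Syn1 moved in opposite directions in 2 areas. It rose by 0.28 in Amy (SE 0.043, adjusted p = 0.015), from −0.47, −0.52 and −0.49 to −0.13, −0.24 and −0.27. It fell by 0.28 in CC (SE 0.034, adjusted p = 0.01), from 0.37, 0.39 and 0.35 to 0.03, 0.11 and 0.12, and the 2 effects differed by 0.56 (adjusted p = 9.85e-06). Its differences of 0.06 in Hippo and −0.14 in PFC did not pass. Syn2 fell by 0.16 in Amy and 0.24 in CC (adjusted p = 0.0237 and 0.03), and Syn3 by 0.21 in Hippo (adjusted p = 0.0395).

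Of the 8 vesicle membrane genes, 1 rose and 1 fell in Amy, 1 fell in Hippo, 1 fell in PFC and 2 rose in CC. Syp encodes synaptophysin, a standard marker of synaptic vesicles. Its differences ran from −0.07 to 0.01 over the 4 areas and none passed (adjusted p from 0.156 to 0.89). Synpr, a relative enriched at mossy fibre and interneuron terminals, fell by 0.50 in Hippo (SE 0.036, adjusted p = 0.00614), from 0.08, 0.02 and 0.01 to −0.51, −0.47 and −0.40. In Amy 1 CMS array stood apart at −0.61 beside 0.05 and 0.06, with controls at 0.13, 0.10 and 0.11, and the difference of −0.28 did not pass (adjusted p = 0.334). Sv2a, the vesicle protein that binds levetiracetam, fell by 0.29 in Amy (SE 0.019, adjusted p = 0.00235), and its relative Sv2b rose there by 0.20 (adjusted p = 0.00774). Sv2b also rose by 0.11 in CC (adjusted p = 0.0454), where Sypl rose by 0.28 (adjusted p = 0.0195). Syngr3 fell by 0.25 in PFC (adjusted p = 0.0395). Sv2c had its 1 probe set at the array floor on all arrays, so its differences of −0.06 to 0.04 carry no level.

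Of the 4 genes of the Rab3 group, 3 encode small GTPases of the vesicle surface and Rph3a encodes rabphilin, their effector. None of them passed the test downward in any area. Rab3b rose by 0.39 in Amy (SE 0.077, adjusted p = 0.0297), with 0.86, 0.68 and 0.57 against 0.31, 0.30 and 0.33, a call lost without CMS array 2 or any 1 control array. Rph3a rose by 0.30 in Hippo (adjusted p = 0.0193) and by 0.31 in CC (SE 0.062, adjusted p = 0.0391). In each of these areas 1 of its 2 probe sets carried the change, 0.57 against 0.02 in Hippo and 0.75 against −0.13 in CC. The CC call was lost without any CMS array or control array 1 or 2. Rab3a rose by 0.11 in Hippo and Rab3c by 0.18 in CC (adjusted p = 0.0358 and 0.0174).

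Among the 6 active zone and priming genes no change passed in Amy. Unc13c, a priming factor of the Munc13 family, fell by 0.19 in PFC (adjusted p = 0.011) and rose by 0.28 in CC (adjusted p = 0.00963), from −0.27, −0.35 and −0.36 to −0.04, −0.06 and −0.03. These effects differed by 0.47 (adjusted p = 2.77e-06). Unc13a, the main priming factor of forebrain synapses, fell by 0.11 in Hippo and 0.23 in CC (adjusted p = 0.0137 and 0.0433), and Pclo, a scaffold protein, fell by 0.22 in Hippo (adjusted p = 0.021). Bsn, Rims1 and Rims2, scaffold and tethering proteins of the active zone, passed in no area.

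Across areas, the sign of the CMS effect differed for a part of the exocytosis genes. Of the 38 members 11 passed in no area, 11 in 1 area, 10 in 2, 5 in 3 and 1 in all 4, and of all genes 51.3%, 33.7%, 11.8%, 2.6% and 0.544% did so. Of the 38 members 8 rose in at least 1 area and fell in at least 1 other, a larger share than the 8.88% of all genes that did. The 8 were Syn1, Syt4, Syt7, Snap25, Vamp1, Stx1a, Napb and Unc13c. A test of the treatment by area interaction passed for 29 of the 38 members, a larger share than the 52.3% of all genes. With a range over 1 between areas it passed for 1 member, Cplx3, and for 2.47% of all genes. For Vamp1, Napb and Unc13c the differences were below 0 in Amy and PFC and above 0 in Hippo and CC, and Unc13c passed in PFC and CC. Vamp2, Sv2a and Syngr1 had these signs too, without passing in Hippo or CC. The general neuronal marker Elavl3 had this order of signs as well, at −0.31, −0.48, 0.23 and 0.32, each past the test. Map2 and Uchl1 shared the signs, not all past the test, and the other general neuronal markers did not. Of these, Rbfox3 rose by 0.39 in Amy, and Elavl4 rose by 0.19 in PFC and fell by 0.15 in CC, each past the test. Over the 38 members the correlation between the hippocampal and the prefrontal effects was −0.647 (Pearson) and −0.463 (Spearman), and without Cplx3 Pearson's r was −0.47. Over all genes it was −0.0613. For the other 5 pairs of areas Pearson's r over the members ran from −0.304 to 0.373, and from −0.404 to 0.39 without Cplx3. This is a description across genes, which are not independent replicates, of arrays that may come from the same mice.

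Probe sets of a gene did not always move together. Of the 30 members with several probe sets, 11 had probe sets that passed in opposite directions in at least 1 area. This was a larger share than the 8.68% of all 9010 genes with several. The number of probe sets of a gene was not allowed for. There were 6 such members in Amy (Syn2, Sypl, Syt1, Rab3c, Pclo and Unc13c), 6 in Hippo (Syn2, Syngr1, Nsf, Napb, Rims2 and Unc13c), 0 in PFC and 2 in CC (Syngr1 and Rims1), beside 3.44%, 4.65%, 0.144% and 1.64% of these genes. In Amy, for example, 2 Syn2 probe sets fell by 0.52 and 0.58 while another rose by 0.39. The 3′ minus 5′ difference of the Actb control probe sets, a measure of RNA integrity and labelling, moved with CMS in CC, from 0.194 in controls to −0.407, in PFC, from 0.132 to −0.067, in Amy, from −0.023 to 0.0722, and in Hippo, from −0.442 to −0.494, with no overlap of arrays in these areas. That of the Gapdh control probe sets moved from 0.12 to −0.0411 in CC, from −0.000155 to 0.127 in Amy and from −0.0609 to −0.125 in Hippo, without overlap, and was 0.00538 and 0.0167 in PFC, where arrays overlapped. Its part in the probe set differences was not tested.

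**Figure D4:**
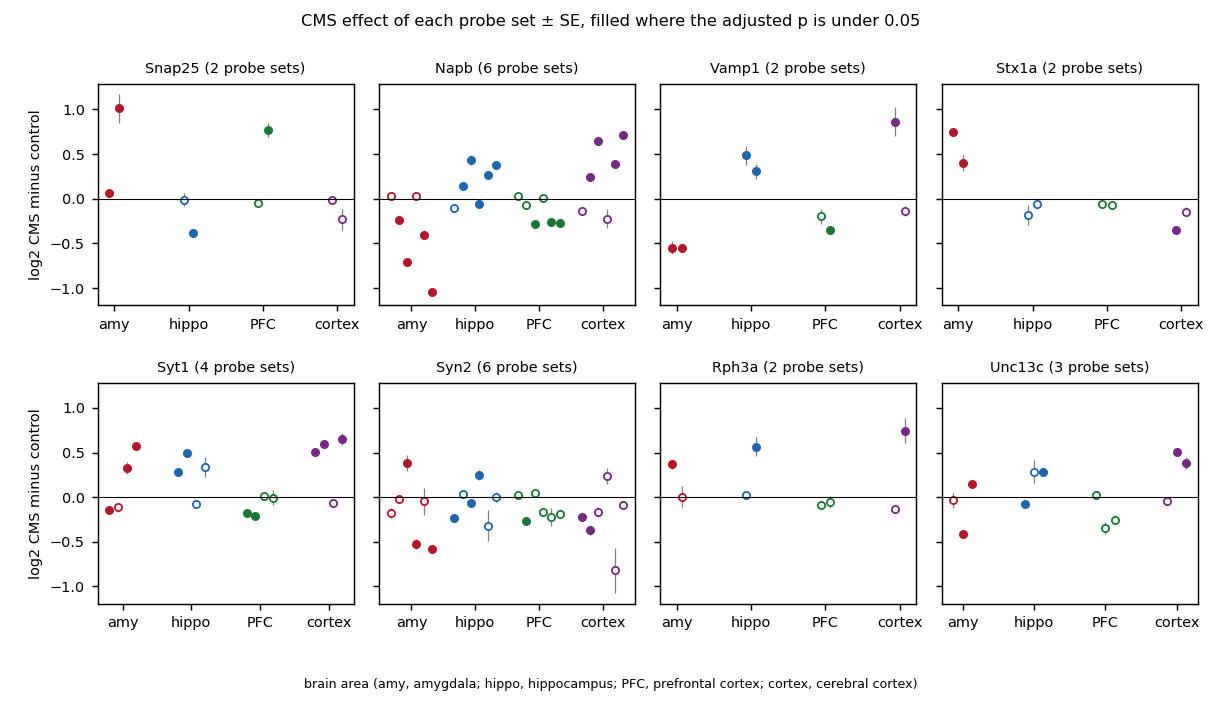
CMS effect (log2, ± SE) of every probe set of 8 exocytosis genes in the 4 brain areas, with filled points where the adjusted p is under 0.05. Snap25 shows 1 probe set that shifts and 1 near 0, while both Vamp1 probe sets fell by 0.55 in Amy.

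In control mice, more of the exocytosis genes were higher than lower in the cortical areas, and more were lower than higher in the other areas. Tested against the other 3 areas, 25 of the 38 members were higher and 5 lower in PFC, where 20.6% of all genes were higher and 23.6% lower. In CC 19 were higher and 9 lower, beside 18.1% and 13.4%, in Amy 9 and 19, beside 23.4% and 15.6%, and in Hippo 7 and 23, beside 24.2% and 28.6%. The 9 members higher in Amy were a share near the background. The mean level of the 13 general neuronal markers ran in the same order of areas, at 0.216 in PFC, 0.0718 in CC, −0.0752 in Amy and −0.207 in Hippo, and 8 of them were highest in PFC and 4 in CC. Its part in the members' levels was not tested. The highest level was in PFC for 16 members, in CC for 11, in Amy for 6 and in Hippo for 5. The F test over control areas with more than 2-fold between the highest and lowest area passed for 9 members, beside 10.4% of all genes. With no bound on size it passed for 37 members and 58.1% of all genes. The 9 were Doc2b, Cplx3, Unc13c, Stx1a, Synpr, Syt2, Rab3b, Syn1 and Sv2b. Whether the areas were processed in separate batches is not given, so area and batch cannot be told apart.

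Doc2b spanned the widest range, with 1.19 ± 0.07 (SD, n = 3) in Hippo, 0.78 ± 0.04 in Amy, −0.43 ± 0.10 in PFC and −3.10 ± 0.44 in CC, a 19.6-fold span. The first 2 did not differ past the threshold (adjusted p = 0.0834), and the later steps did. Cplx3 ran the other way, from 1.59 ± 0.24 in CC through 0.34 ± 0.23 in PFC to −1.49 ± 0.06 in Amy and −1.81 ± 0.14 in Hippo, of which the last 2 did not differ past the threshold (adjusted p = 0.1). Unc13c was highest in Amy at 1.78 ± 0.04 and lowest in Hippo at −1.03 ± 0.08, with each step of the order past the test. Stx1a was high in CC, 0.86 ± 0.01, and PFC, 0.59 ± 0.02, and low in Hippo, −1.1 ± 0.14, and Amy, −1.18 ± 0.04, a 4.1-fold span. Synpr stood at −1.34 ± 0.16 in CC and between −0.07 and 0.11 in the other 3 areas, which did not differ stepwise.

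**Figure D5:**
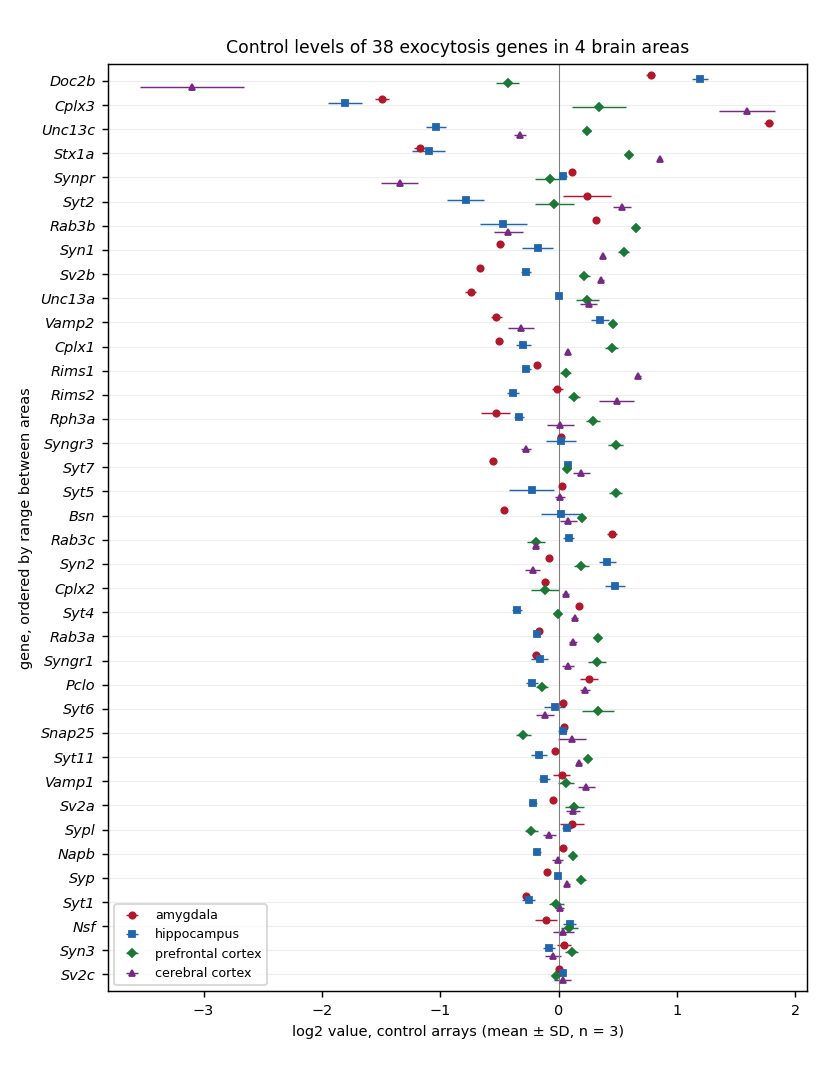
Log2 level of each exocytosis gene in the control arrays of 4 brain areas (mean ± SD, n = 3), ordered by the range between areas. Doc2b, Cplx3, Unc13c and Stx1a spread widest, and Nsf, Syn3 and Sv2c hardly differ between areas.

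Other members differed less between control areas. Cplx2 was highest in Hippo at 0.48 ± 0.08. Vamp2 was highest in PFC, 0.46 ± 0.02, and Hippo, 0.35 ± 0.07, which did not differ past the threshold (adjusted p = 0.103), and lowest in Amy at −0.53 ± 0.05. Rims1 was highest in CC, 0.67 ± 0.03, and Rab3b in PFC, 0.66 ± 0.02. Snap25 was lowest in PFC at −0.30 ± 0.06, and Syp and Syt1 differed by 0.29 at most.

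After CMS the same test passed for 10 members, against 11.5% of all genes, and 7 members passed under both treatments. Of those 7, 5 had their highest level in the same area and 4 kept the order of all 4 areas. The Cplx3 span was wider after CMS than in controls, 30.5-fold against 10.5-fold, and the Stx1a span narrower, 3.55-fold against 4.1-fold.

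Of 38 measured genes among 42 further exocytosis genes, 5 rose and 7 fell in Amy, 5 and 7 in Hippo, 2 and 1 in PFC and 8 and 6 in CC. These shares were 13.2% and 18.4% in Amy, against 10.5% and 8.84% of all genes, 13.2% and 18.4% in Hippo, against 4.66% and 24.9%, 5.26% and 2.63% in PFC, against 4.45% and 3.92%, and 21.1% and 15.8% in CC, against 5.95% and 3.99%. Stxbp5l, which encodes tomosyn-2, an inhibitor of SNARE assembly, rose by 0.63 in Amy (adjusted p = 0.0011) and 0.37 in CC (adjusted p = 0.00462). The priming factor Unc13b rose by 0.49 in Amy (adjusted p = 0.00682) and fell by 0.19 in CC (adjusted p = 0.0257). Syt9 rose by 1.47 in Hippo (adjusted p = 0.0142) and fell by 0.40 in Amy and 0.50 in CC (adjusted p = 0.0323 and 0.0293), and the SNARE Vamp7 fell by 0.62 in Hippo (adjusted p = 0.00662) and rose by 0.32 in PFC (adjusted p = 0.00847). Erc2, an active zone protein, rose by 0.47 in Amy, 0.26 in PFC and 0.23 in CC (adjusted p = 0.0017, 0.00997 and 0.0193), and Snap23, a SNARE found in many cell types, rose by 0.47 in CC (adjusted p = 0.0298).

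Of 24 measured vesicle endocytosis genes, 1 rose and 4 fell in Amy, 4 and 3 in Hippo, 1 and 4 in PFC and 4 and 3 in CC. The rising share was 4.17% in Amy and in PFC and 16.7% in Hippo and in CC. The falling share was 16.7% in Amy and in PFC and 12.5% in Hippo and in CC. Of all genes 10.5% rose and 8.84% fell in Amy, and 4.66% and 24.9% in Hippo. In PFC 4.45% and 3.92% of all genes did so, and in CC 5.95% and 3.99%. The share that rose in Amy and that which fell in Hippo were thus below those of all genes. The share that rose in PFC was near the background. Ap2a1, a subunit of the clathrin adaptor AP-2, fell by 0.62 in Amy (adjusted p = 0.0102), 0.29 in PFC (adjusted p = 0.0209) and 0.24 in CC (adjusted p = 0.0306), and rose by 0.23 in Hippo (adjusted p = 0.0216). The scaffold gene Itsn1 fell by 0.33 in Amy and 0.18 in Hippo (adjusted p = 0.016 and 0.0375). Dnm3, a dynamin of the fission step, rose by 0.40 in Hippo (adjusted p = 0.00516) and 0.67 in CC (adjusted p = 0.0035), the adaptor gene Ap2a2 rose by 0.28 in Hippo (adjusted p = 0.0104), the clathrin heavy chain gene Cltc fell by 0.42 in CC (adjusted p = 0.027) and rose by 0.22 in PFC (adjusted p = 0.0336), and Dnm1 fell by 0.23 in PFC (adjusted p = 0.0279).

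Of 15 measured genes of the proton pump that powers vesicle filling, 1 rose and 3 fell in Amy, 4 and 1 in Hippo, 3 and 1 in PFC and 1 and 0 in CC. In Hippo that was 26.7% and 6.67%, against 4.66% and 24.9% of all genes, and in PFC 20% and 6.67%, against 4.45% and 3.92%. In Amy the shares were 6.67% and 20%, against 10.5% and 8.84%, and in CC 6.67% and 0%, against 5.95% and 3.99%. The rising share was thus below the background in Amy and near it in CC. Atp6v0e2 fell by 0.25 in Amy (adjusted p = 0.0115) and 0.19 in PFC (adjusted p = 0.0248), and Atp6v0a1 rose by 0.32 in Hippo (adjusted p = 0.00923). The catalytic subunit gene Atp6v1a fell by 0.21 in Amy (adjusted p = 0.0126) and rose by 0.09 in Hippo and 0.16 in CC (adjusted p = 0.0158 and 0.0182). The rest of the named pump genes moved by less, with Atp6v1d at 0.17 in PFC (adjusted p = 0.0417) and Atp6v1g1 at −0.08 in Amy, −0.10 in Hippo and 0.08 in PFC (adjusted p = 0.0184, 0.0147 and 0.044).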

How the data were processed

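Expression was read on Affymetrix mouse 3′ arrays, with 3 arrays for each treatment in each of 4 brain areas. The authors deposited log2 values made with GCRMA, and every probe set had been centred, with a median of 0 to within 5e-07 across 24 arrays, so values compare arrays but not genes. The table was used as deposited. Its 64 control probe sets were left out of tests, and of the 45037 others 34945 had 1 gene symbol, 932 several and 9160 none in the platform annotation. Probe sets with 1 symbol were averaged by gene, which gave 18193 genes.

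Each area was fitted on its 6 arrays with limma 3.58.1 in R 4.3.3 (lmFit and eBayes, Benjamini-Hochberg adjustment over all genes, threshold 0.05), and area levels and the treatment by area interaction were fitted on the control, CMS or all 24 arrays. Genes were named singly where they passed 2-fold, where they were among the 4 largest rises or falls of an area past the threshold with a log2 difference of at least 0.3, where they were the 3 highest or the lowest in a control area against the others, in a core of 6 (Syn1, Syp, Syt1, Snap25, Vamp2, Stx1a), or as the 2 largest of a further list. Other members were named so that all 38 are accounted for. The members, roles and lists were chosen with earlier results of these data known. The fits were tested on simulated data that gave each gene the same SD in all groups. When every group kept its own SD from 3 arrays, the F tests over areas and of the interaction called more unchanged genes, so those calls lean on equal spread. No sign of pairing by replicate number was seen, as deviations of same-numbered CMS and control arrays correlated at −0.0645 to 0.0267. Those of same-numbered arrays of different areas within a treatment correlated at −0.238 to 0.106. In none of the pairs of areas did every number exceed 0.1, so arrays were fitted as independent, although areas may share mice. With 3 arrays in a group, such correlations cannot exclude shared mice or batches. Of 24 arrays, no pair within a group correlated above 0.928 in its centred values. The median SD within a group was 0.0351 to 0.0627 over genes and 0.031 to 0.0611 over members, and the number of arrays limits the precision. Promoters came from RefSeq on GRCm38.p6. Plots were drawn with matplotlib.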

Additional observations from a re-analysis of the deposited data

Results flagged for a closer look

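For 9 of the 29 members past the interaction test, the gene also passed the threshold upward in 1 area and downward in another, or its effects spanned a range over 1 between areas. The highest minus the lowest log2 effect was 1.74 for Cplx3 (adjusted p = 0.00145), 0.947 for Vamp1 (adjusted p = 1.44e-06), 0.824 for Stx1a (adjusted p = 1.42e-06), 0.789 for Syt4 (adjusted p = 6.95e-07) and 0.734 for Snap25 (adjusted p = 2.98e-06). It was 0.684 for Syt7 (adjusted p = 1.8e-07), 0.66 for Napb (adjusted p = 3.77e-10), 0.564 for Syn1 (adjusted p = 3.42e-05) and 0.472 for Unc13c (adjusted p = 1.19e-06). The other 20 members past the interaction test spanned 0.135 to 0.803, 18 of them with effects of both signs that did not both pass. The 52.3% of all genes that passed the same interaction test give the scale for these counts. Groups of 3 arrays were not tested for single arrays that stand apart.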

How the results depend on the processing

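Of 192 values of the 16 named CMS effects under other settings, 176 stayed past the threshold, 16 lost the call and 0 turned sign. Leaving out 1 array at a time, 73 of 96 stayed past it. Stx1a, Vamp1 and Napb in Amy and Syt1 in CC passed under every setting run. With the most variable probe set in place of the mean, Doc2b in Amy (−0.09) and Syt7 in Amy (0.21) lost the call. With the methods' t-test Doc2b in PFC and Rph3a in CC lost it, Rph3a also with median centring, and with the replicate block 11 did, namely Cplx3, Synpr, Syt4 and Vamp1 in Hippo, Doc2b, Rab3b, Snap25 and Syt4 in Amy, Doc2b and Snap25 in PFC and Rph3a in CC.

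Counts of members depended more on the setting. Leaving out 1 array, those that rose numbered 3 to 9 in Amy (3 without any control array), 1 to 10 in Hippo (1 without CMS array 3 or control array 1 or 2, 3 without CMS array 2, 10 without control array 3), 1 to 2 in PFC (1 without CMS array 1 or 2 or control array 1 or 2) and 2 to 7 in CC (2 without CMS array 2, 3 without CMS array 3, 4 without control array 1 or 2). Those that fell numbered 6 to 10 in Amy, 2 to 8 in Hippo (2 without CMS array 3 or control array 1, 4 without control array 2, 5 without CMS array 1 or 2), 1 to 3 in PFC whichever array was left out, and 2 to 6 in CC (2 without CMS array 1 or 2, 3 without CMS array 3 or control array 1). The past-2-fold counts were 0 to 1 in Amy, with 1 without CMS array 1, and 0 to 1 in Hippo, with 1 only without CMS array 2, and the interaction count with a range over 1 was 1 to 2.

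With a fold over 1.2 asked for, chosen after seeing the data, 2 rose and 3 fell in Hippo, 1 and 2 in PFC, and 2 fell in CC. With the methods' t-test 1 rose and 1 fell in PFC and 3 fell in CC. Fitting all 24 arrays, 4 rose in PFC, as with quantile normalization. With array weights 10 rose in Hippo, 7 rose and 14 fell in PFC, and 11 rose in CC. Trend and robust options left 3 that fell in PFC, and leaving out the less variable genes left 5 that fell in Hippo. Median centring left 5 that fell in Hippo and 3 in CC. Cplx3 in Hippo no longer passed 2-fold with quantile normalization or median centring (0 members each), and under both the interaction count was 2. With the most variable probe set 21 members differed between control areas and 22 between CMS areas, 4 in the interaction and 2 past 2-fold in Amy. The cause of these shifts was not tested. The interaction is fitted on all arrays already, so that setting adds no value for it.

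With the replicate number as a block, 3 rose and 3 fell in Amy, 0 and 0 in Hippo (with 0 past 2-fold), 0 and 0 in PFC, and 1 and 0 in CC. Over all genes the block left 0% in Hippo in either direction. The correlations of same-numbered arrays showed no sign of pairing, but with 3 arrays in a group they cannot exclude it. Whether calls lost under the replicate block describe a weaker effect was not tested.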
